A study of Homo sapiens with 18 samples.

Results

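The genes that copy DNA and drive cell division were followed through foregut endoderm made from human H1 cells, an established embryonic stem cell line. The 42 genes were taken by symbol from the table of 34989 named genes and fall into 20 genes of S phase, in which DNA is copied, 15 of G2 and mitosis (G2/M), in which the copied chromosomes are separated, 3 D cyclins and 4 inhibitors of cyclin-dependent kinases (CDKs). 41 of the 42 passed the filter on low counts, together with 15531 genes in all. The exception was the inhibitor CDKN2C, which lay between 0 and 1.0 CPM (library-scaled counts-per-million) in the 18 libraries and was not tested.

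RNA was sequenced in bulk from wild-type cells in 6 groups of 3 libraries. On day 6 the cells were either untreated or had received all-trans retinoic acid (RA) at 2 µM for 24 h up to that day. On day 9 there were 4 groups: untreated cells, cells with the same early RA and no later factor named in the labels, cells kept from day 6 for 72 h in 2 µM CHIR99021 plus 50 ng/mL BMP4, and cells given RA first and CHIR99021 with BMP4 afterwards. CHIR99021 inhibits the kinase GSK3 and so activates Wnt signalling, BMP4 is a growth factor, and the pair was used to mimic signals that induce respiratory fate. All 6 groups came from 1 cell line, and the labels do not say that replicates were separate differentiations, so the p-values measure only the spread between these libraries.

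A cell commits to division in G1, when D cyclins with their kinases phosphorylate the retinoblastoma protein and release E2F transcription factors. E2F factors switch on the genes of the replication machinery, and later B-MYB and FOXM1 act with the MuvB complex on the G2/M genes. CDK inhibitors such as p21 act against the cyclin-dependent kinases, and cells leaving the cycle usually lower both gene groups. RNA from a mixed culture sums over its cells, so a lower level can come from fewer dividing cells or from less RNA per cell, and these cannot be told apart here.

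Library totals ran from 5792337 to 25371661 counts. Treated and untreated libraries also differed in a set of 62 genes, picked for at least 2 CPM and a 10-fold gap between the 12 treated libraries and 4 untreated ones (day 9 and day 6 replicate 2), 58 of them pseudogenes and none of them among the 42 genes. Of the counts in these genes, those in the 31 that were higher in treated libraries made up 93.9% to 95.5% in the 12 treated libraries, 0.331% to 0.591% in untreated day 9 libraries, and 8.65%, 0.373% and 17.2% in the 3 untreated day 6 libraries. In every comparison of treated with untreated libraries (RA at day 6, RA at day 9, CHIR99021 and BMP4 without RA) this pseudogene signature and the treatment cannot be told apart. With the signature as a covariate, no gene of the 42 was called in these 3 comparisons. The comparisons of RA-treated day 9 with RA-treated day 6, of RA followed by CHIR99021 and BMP4 with RA alone, and of the same with CHIR99021 and BMP4 alone lie within treated libraries, where the covariate left the counts of called members as they were. All 9 endoderm markers had reads in every group.

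The start regions of members of both phases are shown because they carry the sequence elements by which the phases are known to be driven. RefSeq (GRCh38.p14) promoters were found for 33 of the 42 genes. Letters TTTCCCGC, TTTGGCGC, TTTCGCGC or TTTGCCGC (E2F elements, either strand) occurred in the 250 bases before the start of 10 of 17 S phase genes and 1 of 12 G2/M genes, and in 3.4% of 27305 genes. The CHR elements TTTGAA and TTTAAA, through which MuvB complexes bind, occurred in 3 of 17 S phase genes, 9 of 12 G2/M genes and 25.5% of all genes, and CCAAT in 12, 11 and 37%. A match describes letters in the window and shows no binding. The 160 bases before the start are given for MCM6 and E2F2 with E2F elements in capitals, where overlapping matches run together, and for CCNB1 and PLK1 with CHR and CCAAT elements in capitals.
MCM6 (chr2:135876444-135876603, minus strand): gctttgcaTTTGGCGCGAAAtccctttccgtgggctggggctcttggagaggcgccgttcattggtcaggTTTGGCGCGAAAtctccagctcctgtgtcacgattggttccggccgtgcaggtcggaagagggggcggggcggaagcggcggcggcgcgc
E2F2 (chr1:23531234-23531393, minus strand): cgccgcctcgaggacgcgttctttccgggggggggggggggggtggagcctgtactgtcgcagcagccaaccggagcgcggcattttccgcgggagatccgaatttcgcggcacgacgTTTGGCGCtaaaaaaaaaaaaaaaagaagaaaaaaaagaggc
CCNB1 (chr5:69166990-69167149, plus strand): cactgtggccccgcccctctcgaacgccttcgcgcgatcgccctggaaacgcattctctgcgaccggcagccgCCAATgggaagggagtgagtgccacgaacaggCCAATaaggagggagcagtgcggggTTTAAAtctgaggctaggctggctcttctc
PLK1 (chr16:23678729-23678888, plus strand): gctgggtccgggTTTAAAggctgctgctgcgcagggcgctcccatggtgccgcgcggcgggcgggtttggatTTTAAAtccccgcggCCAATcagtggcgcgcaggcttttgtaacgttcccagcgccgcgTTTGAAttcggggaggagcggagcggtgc

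Levels between genes were compared as TPM (transcripts-per-million), which corrects for gene length. PCNA, the sliding clamp of the replication fork, had the highest median level of the 42 genes over the 18 libraries, 432 TPM (range 239 to 705). TOP2A, the topoisomerase that untangles chromosomes before mitosis, followed with 309.6 TPM, and MCM3, a subunit of the replicative helicase, with 259 TPM. CCND1 was the most abundant D cyclin in median level (123 TPM), against 37.7 TPM for CCND2 and 3.58 TPM for CCND3. Among the inhibitors, the median was 24.6 TPM for CDKN1A (p21), 15.9 TPM for CDKN1B (p27), 14 TPM for CDKN1C (p57) and 0.334 TPM for CDKN2C. The ranges of CDKN1B (11.4 to 21.4 TPM) and CDKN1C (8.50 to 25.2 TPM) overlapped. All further levels are CPM after scaling of the libraries, which serves to compare 1 gene between groups. Groups without overlap were common. Of 15531 tested genes, 4600 were higher and 4276 lower without overlap for RA at day 6. For RA at day 9 these counts were 5089 and 5107. They were 3845 and 3813 for CHIR99021 and BMP4 without RA and 5441 and 5326 after RA. For RA before CHIR99021 and BMP4 they were 4230 and 4491. For day 9 against day 6 they were 4137 and 3776 in untreated and 4887 and 5212 in RA-treated cells.

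**Figure D1:**
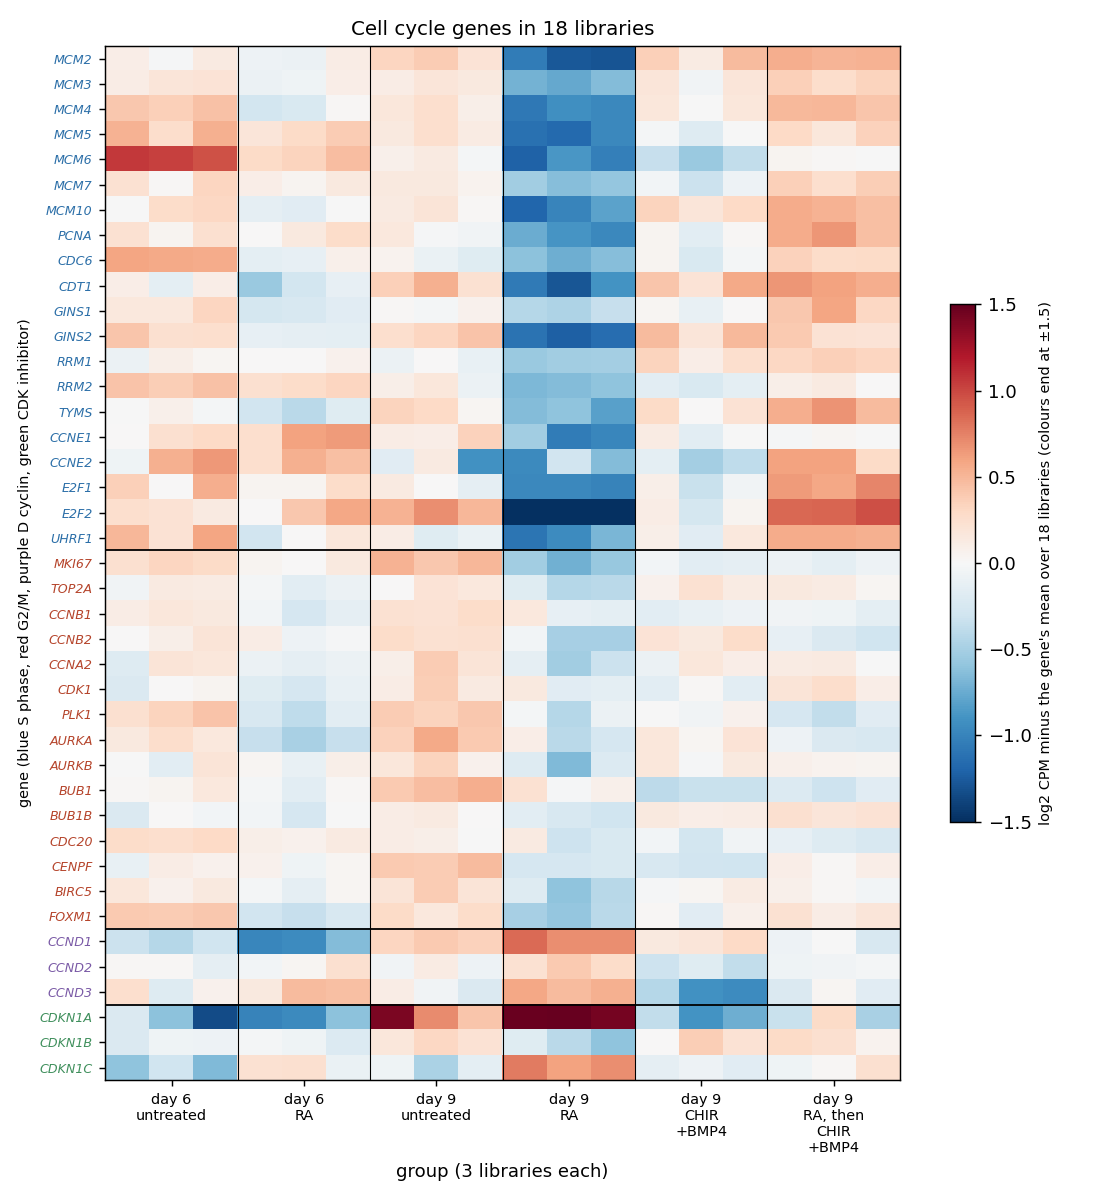
Level of the 41 tested genes (rows, coloured by class) in the 18 libraries (columns, 3 per group), as log2 CPM minus the mean of the gene over all libraries, with colours ending at ±1.5. The 3 day 9 RA libraries are low for the S phase genes and high for the D cyclins, and the libraries with RA followed by CHIR99021 and BMP4 are high for many S phase genes.

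Early RA followed by 3 days without CHIR99021 and BMP4 was accompanied by low S phase genes on day 9. MCM2, a helicase subunit loaded onto origins in G1, measured 282, 295 and 261 CPM in untreated day 9 libraries and 109, 93.6 and 92.6 CPM in day 9 RA libraries. The groups did not overlap, and the day 9 RA libraries were the lowest of all 18. The difference was 2.85-fold (log2 -1.51 ± 0.09 (SE), adjusted p = 1.02e-12, edgeR's quasi-likelihood test with Benjamini-Hochberg adjustment). GINS2, a subunit of the GINS complex that activates that helicase, was 56.0, 59.1 and 63.4 CPM untreated and 22.0, 20.3 and 21.4 CPM with RA, 2.79-fold lower (log2 -1.48 ± 0.10 (SE), adjusted p = 4.62e-12). E2F2, 1 of the transcription factors that drive S phase genes, gave the largest log2 change of the class. It measured 28.4, 32.0 and 28.0 CPM untreated and 6.10, 4.59 and 4.67 CPM with RA, 5.83-fold lower (log2 -2.54 ± 0.15 (SE), adjusted p = 1.76e-12).

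Over the class, 19 of 20 S phase genes were lower with RA on day 9 and none was higher, with a median log2 change of -0.96 against -0.02 over all tested genes. In this comparison 65.1% of all tested genes were called (32.5% higher and 32.5% lower). CCNE2, cyclin E2, was the member not called, with means of 5.99 and 4.70 CPM and log2 -0.35 (edgeR adjusted p = 0.198). In 19 of 20 S phase genes the 3 day 9 RA libraries lay below every other library, as they did in 10.9% of all tested genes, and the mean of all 20 was lowest in that group. With the pseudogene signature as a covariate, which nearly coincides with treatment, none of the 20 was called (65 of all tested genes were), while all 20 kept the negative sign and the median was -1.45. Scaled as TPM, where the median of all tested genes moved to 0.26 and 73.3% of called genes were higher (50% on the CPM scale), 17 of 20 were lower and none higher.

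Markers of other cell types also differed in the day 9 RA libraries. Summed over 10 cardiac muscle genes, they measured 1709 to 2320.0 CPM against 45.6 to 57.0 CPM in untreated day 9 libraries, with all 10 genes detected in the former and MYBPC3 at 0 in the latter. The 10 mesenchyme genes summed to 4307 to 5601 against 903 to 1424 CPM and the 9 neural genes to 697 to 1031 against 156 to 167 CPM, with NEUROD1 at 0 in both groups and SOX1 in the untreated one. Of the mesenchyme genes 7 were called higher and none lower, with 32.5% of all tested genes higher. VIM (2000 against 155 CPM in the mean) and COL1A1 (1606 against 196 CPM) had the largest means with RA. COL1A2 (555 against 511 CPM) and PDGFRB (81.8 against 76.4 CPM) differed little. Most of the neural sum was NES, an intermediate filament gene also expressed outside the nervous system (789 against 132 CPM in the mean). Among neuronal genes, the means of STMN2 (38.3 against 2.72 CPM) and TUBB3 (18.4 against 3.35 CPM) were higher, and that of DCX (11.1 against 21.6 CPM) was lower. Of 6 tested neural genes 3 were called higher and 1 lower, with 32.5% of all tested genes called in each direction. The 9 endoderm genes summed to 1785 to 2007 against 947 to 1102 CPM. After CHIR99021 and BMP4 on RA, the sums were 17.7 to 19.1 CPM for cardiac, 641 to 672 CPM for mesenchyme and 158 to 162 CPM for neural genes, with the cardiac gene MYBPC3 and the neural genes SOX1 and NEUROD1 at 0. The mesenchyme genes were split against RA alone, with 3 called higher and 6 lower (32.1% and 32.3% of all tested genes). PDGFRA, for example, had a higher mean (54.5 against 20.7 CPM). The part of these cells in the cell cycle values was not tested.

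The fall over time could be measured within treated libraries. From day 6 to day 9 after RA, all 20 S phase genes were lower (median log2 -0.89), where 58.8% of all tested genes were called (28.5% higher and 30.3% lower). MCM6, another subunit of the MCM helicase, was 222, 229.9 and 249 CPM on day 6 and 78.3, 99.5 and 89.3 CPM on day 9 after RA, 2.62-fold lower (log2 -1.39 ± 0.08 (SE), adjusted p = 9.58e-13, edgeR). MCM5 went from 137, 147 and 157 CPM to 55.3, 53.8 and 61.7 CPM, 2.58-fold lower (edgeR adjusted p = 3.81e-12). The day 9 libraries lay below all day 6 libraries for both. E2F2 was 19.9, 26.2 and 29.4 CPM on day 6 and, as given above, 4.59 to 6.10 CPM on day 9, 4.98-fold lower (edgeR adjusted p = 1.09e-11).

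Untreated cells changed less uniformly over the same days. Between day 6 and day 9, 3 S phase genes were higher, 9 were lower and 8 were not called (median log2 -0.11), while 46.9% of all tested genes were called (24% higher and 22.9% lower). MCM6 had the largest fall, from 377, 371 and 353 CPM to 192, 200 and 179 CPM, 1.93-fold (log2 -0.95 ± 0.08 (SE), adjusted p = 1.32e-09, edgeR). CDC6, which loads the MCM helicase onto origins, was 86.6, 85.5 and 84.3 CPM and then 59.4, 53.6 and 50.8 CPM, 1.55-fold lower (edgeR adjusted p = 1.07e-06). Neither gene's groups overlapped. CCNE2 was 6.84, 10.3 and 11.2 CPM and 6.35, 7.83 and 3.80 CPM, with overlapping groups and an edgeR adjusted p of 0.0174 that rose to between 0.0501 and 0.107 when day 6 replicate 2, day 6 replicate 3, day 9 replicate 3 or day 6 replicates 1 and 3 were left out, or only these groups were fitted. The higher members were CDT1, the licensing factor that works with CDC6, E2F2 and MCM2 (log2 0.35, 0.37 and 0.23). Without day 6 replicates 1 and 3, which had the mixed read signature, 1 S phase gene was higher and 3 were lower, and without untreated day 9 replicate 2, 7 were called in all. Under TPM, where the median of all tested genes moved to -0.15 and 28.2% of called genes were higher (51.3% on the CPM scale), no S phase gene was higher and 14 were lower. With the pseudogene signature as a covariate, 2 were higher and 3 lower.

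The response to RA differed between the days. Tested as the day 9 response minus the day 6 response, 16 of 20 S phase genes were lower and none was higher (median log2 -0.64), where 50.9% of all tested genes were called (24.9% higher and 26% lower). E2F2 had the largest difference, log2 -2.69 ± 0.20 (SE), adjusted p = 2.06e-10 (edgeR), followed by MCM2 with log2 -1.42 ± 0.12 (SE), adjusted p = 2.03e-09. CCNE1, cyclin E1, which activates CDK2 at the entry to S phase, differed by log2 -1.35 ± 0.19 (SE), adjusted p = 4.37e-06. It measured 17.6, 20.7 and 21.5 CPM on day 6 untreated and 20.7, 26.6 and 27.2 CPM with RA, and 18.9, 18.7 and 22.3 CPM on day 9 untreated and 12.2, 8.46 and 8.89 CPM with RA. With the pseudogene signature as a covariate, 17 S phase genes were called in this contrast. The signature separated RA from untreated libraries on both days and so largely cancels here, which makes the covariate a weak check.

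At the end of the 24 h of RA, on day 6, the S phase differences were smaller. 10 S phase genes were lower, 1 was higher and 9 were not called (median log2 -0.20), where 48.7% of all tested genes were called (25.3% higher and 23.4% lower). MCM6 was 377, 371 and 353 CPM untreated and 222, 229.9 and 249 CPM with RA, 1.57-fold lower (log2 -0.65 ± 0.08 (SE), adjusted p = 2.82e-07, edgeR). CDC6 was 86.6, 85.5 and 84.3 CPM and 51.9, 52.9 and 60.3 CPM, 1.56-fold lower (edgeR adjusted p = 6.66e-07), and MCM4, a helicase subunit, 357, 347 and 365 CPM and 223, 231 and 274 CPM, 1.47-fold lower (edgeR adjusted p = 2.27e-06). None of these groups overlapped. Scaled as TPM, the class split into 3 higher and 4 lower genes with a median log2 change of 0.01, and 7 genes were called without untreated day 6 replicate 3 or day 6 RA replicate 2, or without untreated day 6 replicates 1 and 3.

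With CHIR99021 and BMP4 given after RA, S phase genes were higher than after RA alone. MCM2 measured 331, 323 and 325 CPM after RA, CHIR99021 and BMP4, 3.33-fold above day 9 RA libraries (log2 1.73 ± 0.09 (SE), adjusted p = 7.03e-14, edgeR) and above all other 15 libraries. E2F2 measured 35.8, 36.2 and 38.6 CPM, 7.30-fold above RA alone (log2 2.87 ± 0.15 (SE), adjusted p = 1.07e-13). CDT1 measured 74.3, 71.1 and 68.5 CPM against 22.5, 19.3 and 25.2 CPM with RA alone, 3.20-fold (log2 1.68 ± 0.12 (SE), adjusted p = 3.32e-11). PCNA measured 203, 217 and 188 CPM against 81.8, 74.1 and 70.4 CPM, with no overlap.

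All 20 S phase genes were higher in this comparison, 14 of them by at least 2-fold (median log2 1.30), where 64.4% of all tested genes were called (32.1% higher and 32.3% lower). The smallest of the 20 changes was that of RRM2, the ribonucleotide reductase subunit that limits the supply of DNA building blocks, at log2 0.72 (edgeR adjusted p = 4.36e-09). The group mean was the highest of the 6 groups for 14 of 20 genes, and for 7 of 20 its 3 libraries lay above all others, as they did in 5.89% of all tested genes. The count of 20 was the same under every alternative run, the read covariate and TPM included.

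**Figure D2:**
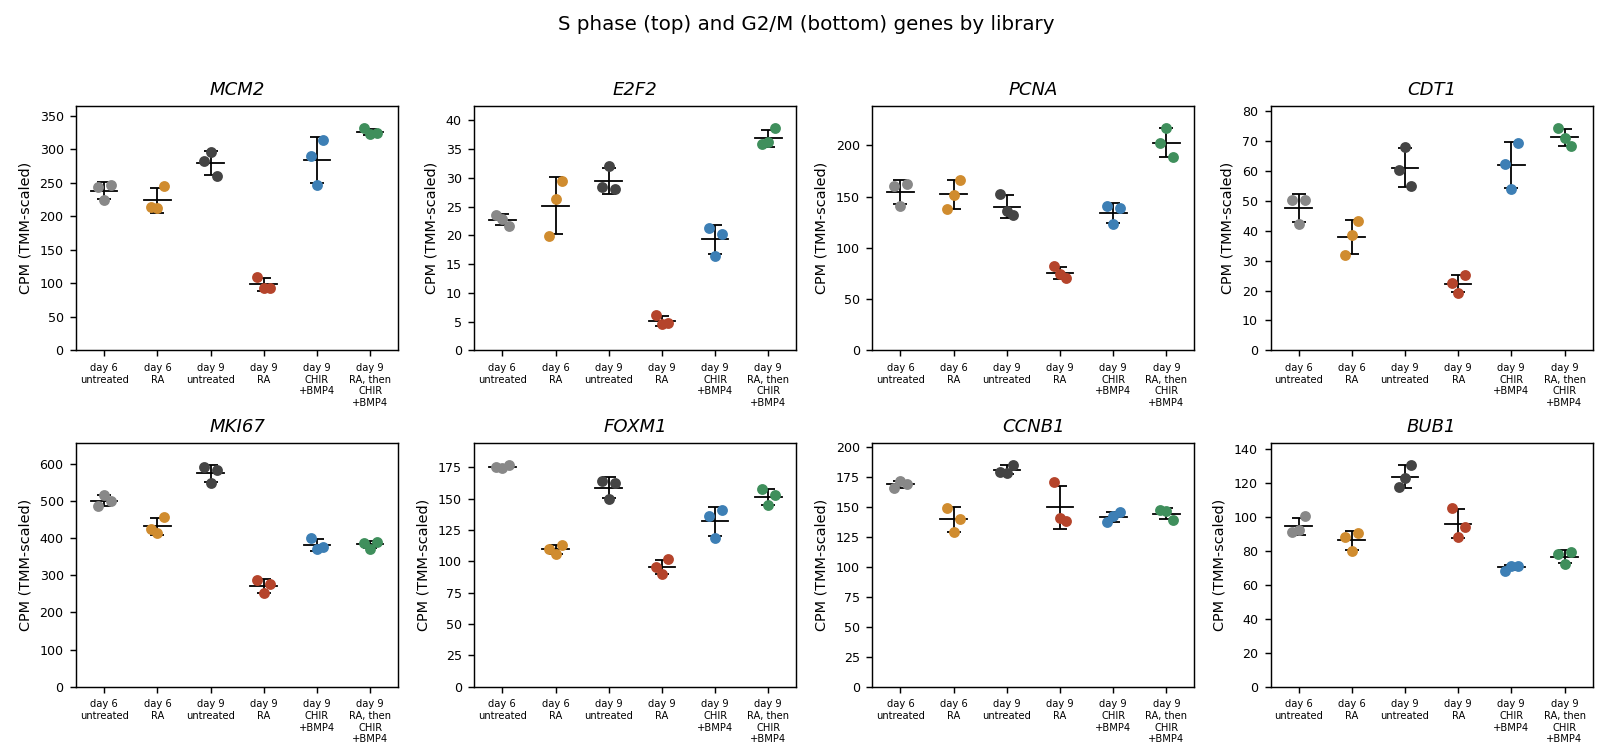
CPM of 4 S phase genes (top row) and 4 G2/M genes (bottom row) in each library (points, coloured by group), with the mean (bar) and SD (error bar) of 3 libraries, on axes that start at 0. In day 9 RA libraries MCM2 lies at 92.6 to 109 CPM and E2F2 at 4.59 to 6.10 CPM, below all other libraries, and CCNB1 at 138 to 170.4 CPM, within the range of the others.

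With CHIR99021 and BMP4 in both groups, earlier RA went with higher S phase genes, the opposite direction to RA on day 9 without these factors. 15 of 20 were higher and none was lower (median log2 0.36), where 43.3% of all tested genes were called (21.2% higher and 22.1% lower). E2F2 was 21.3, 16.4 and 20.3 CPM without RA and 35.8, 36.2 and 38.6 CPM with it, 1.89-fold higher (log2 0.92 ± 0.12 (SE), adjusted p = 1.07e-06, edgeR). Its activator relative E2F1 went from 39.0, 29.0 and 35.4 CPM to 57.0, 54.8 and 60.8 CPM, 1.65-fold (edgeR adjusted p = 1.28e-05), and CCNE2 from 6.44, 4.99 and 5.49 CPM to 10.9, 10.8 and 8.68 CPM, 1.80-fold (edgeR adjusted p = 0.00116). None of the 3 overlapped between groups. The members not called were MCM2, CDT1, GINS2, RRM1 and CCNE1.

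Without RA, CHIR99021 and BMP4 went with 1 higher and 5 lower of 20 S phase genes against untreated day 9 (median log2 -0.05), where 42.8% of all tested genes were called (21% higher and 21.8% lower). The share of lower S phase genes was thus near that of all tested genes. A list of 47 further S phase and replication genes leaned the other way, with 20 higher and 4 lower (median log2 0.17). RRM1, the other ribonucleotide reductase subunit, was the higher one, with 149, 160 and 148 CPM untreated and 199.6, 170.5 and 189 CPM treated (log2 0.29 ± 0.07 (SE), adjusted p = 0.000898, edgeR). E2F2 was 16.4 to 21.3 against 28.0 to 32.0 CPM, 1.5-fold lower (edgeR adjusted p = 0.000369), and MCM6 was 143, 123 and 140.5 CPM against 179 to 200 CPM, 1.40-fold lower (edgeR adjusted p = 2.33e-05). Under TPM, where the median of all tested genes moved to 0.21, the split turned to 6 higher and 2 lower.

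Whether the RA response depended on the later factors was tested as an interaction. The log2 response in cultures that later received CHIR99021 and BMP4, minus the response in those that did not, was positive for all 20 S phase genes (median log2 1.35), where 53.4% of all tested genes were called (25.5% higher and 27.9% lower). E2F2 gave log2 3.46 ± 0.20 (SE), adjusted p = 2.25e-12, E2F1 log2 1.73 ± 0.17 (SE), adjusted p = 1.52e-08 and MCM2 log2 1.71 ± 0.12 (SE), adjusted p = 8.75e-11 (edgeR). The 20 stayed called with TPM, and with the read covariate 1 stayed called although all 20 kept the positive sign.

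**Figure D3:**
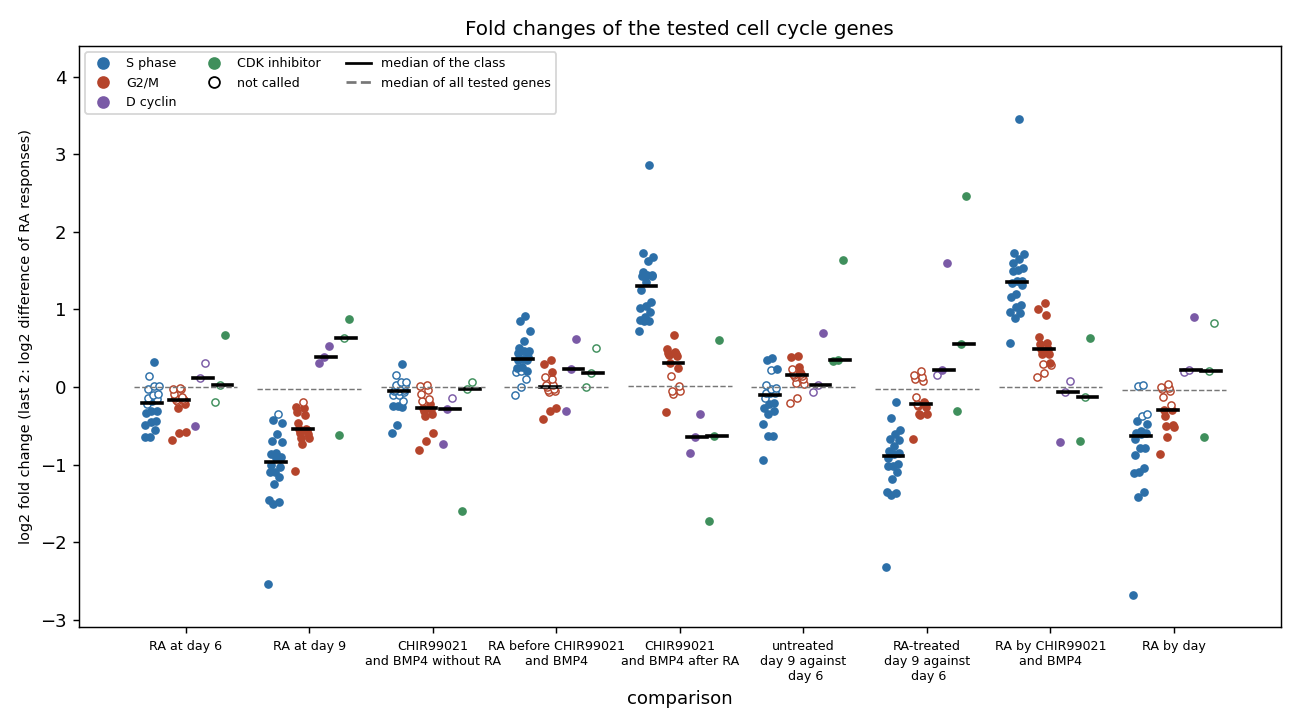
Log2 fold change of each tested gene (points, coloured by class, filled where called at an edgeR adjusted p below 0.05) in 7 comparisons, and the log2 difference of RA responses in 2 interactions, with the median of each class (solid bar) and of all tested genes (dashed line). Over the 7 comparisons S phase medians run from -0.96 for RA at day 9 to 1.30 for CHIR99021 and BMP4 after RA, and G2/M medians from -0.54 to 0.31 in the same comparisons, while the interaction of RA with CHIR99021 and BMP4 has medians of 1.35 and 0.49.

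G2/M genes were also lower with RA on day 9. MKI67, the proliferation marker Ki-67, measured 591, 548 and 584 CPM untreated and 287, 251 and 278 CPM with RA, 2.11-fold lower (log2 -1.08 ± 0.07 (SE), adjusted p = 2.58e-12, edgeR), with all 3 RA libraries below every other library. FOXM1, a transcription factor of the G2/M genes, was 164, 149 and 163 CPM and 95.1, 90.0 and 102 CPM, 1.66-fold lower (edgeR adjusted p = 5.89e-09). BIRC5 (survivin), a subunit of the chromosomal passenger complex, was 99.4, 113 and 99.5 CPM and 75.6, 57.2 and 65.1 CPM, 1.58-fold lower (edgeR adjusted p = 4.74e-07). 14 of 15 G2/M genes were lower and none was higher (median log2 -0.54), with 32.5% of all tested genes lower. Under TPM 6 were lower and none higher, with the sign kept in 11 of 15. CDC20, an activator of the anaphase-promoting complex, was the member not called, and its value is uncertain: the copy CDC20P1 held 27.2% as many counts, at 26.6 to 31.8 CPM in untreated and 13.4 to 18.3 CPM in treated libraries.

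Within RA-treated cells, 8 of 15 G2/M genes were lower on day 9 than on day 6 and none was higher (median log2 -0.22), where 58.8% of all tested genes were called (28.5% higher and 30.3% lower). MKI67 was 424, 413 and 457 CPM on day 6 and 251 to 287 CPM on day 9, 1.59-fold lower (log2 -0.67 ± 0.07 (SE), adjusted p = 9.43e-09, edgeR). CCNB1, the cyclin that activates CDK1 for entry into mitosis, was 149, 129 and 140.0 CPM and 170.4, 140.5 and 138 CPM, with overlapping groups and log2 0.10 (edgeR adjusted p = 0.258). PLK1, a mitotic kinase, was 76.9, 69.8 and 81.0 CPM and 88.9, 67.4 and 85.1 CPM, log2 0.08 (edgeR adjusted p = 0.444). In untreated cells 4 G2/M genes were higher on day 9 than on day 6 and none was lower (median log2 0.15), a share near the 24% of all tested genes that were higher. CENPF, a kinetochore protein, was 476, 552 and 536 CPM on day 6 and 675, 669 and 713 CPM on day 9, 1.31-fold higher (edgeR adjusted p = 2.92e-05). BUB1, a spindle checkpoint kinase, went from 90.9, 92.3 and 100.2 CPM to 117, 123 and 130.5 CPM, 1.30-fold (edgeR adjusted p = 0.000218). Neither overlapped. Under TPM, where BUB1 was not called (limma adjusted p = 0.0749), this split became 1 higher and 2 lower, and 2 were called without untreated day 6 replicate 1 or without replicates 1 and 3.

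On day 6, RA went with 5 lower G2/M genes of 15 and none higher (median log2 -0.17), where 48.7% of all tested genes were called (25.3% higher and 23.4% lower). FOXM1 was 175, 174 and 177 CPM untreated and 109.8, 106 and 113 CPM with RA, 1.6-fold lower (log2 -0.68 ± 0.07 (SE), adjusted p = 3.69e-08, edgeR). PLK1 was 107, 114 and 122 CPM untreated and 69.8 to 81.0 CPM with RA, 1.51-fold lower (edgeR adjusted p = 6.39e-06). AURKA, a centrosome kinase, was 59.1, 64.3 and 59.6 CPM untreated and 42.2, 38.0 and 41.9 CPM with RA, 1.5-fold lower (edgeR adjusted p = 4.55e-05). None of the 3 overlapped. The RA response on day 9 minus that on day 6 was called negative for 8 of 15 G2/M genes and for 26% of all tested genes. The 15 values had a median log2 of -0.30 and ran from -0.86 to 0.04. The called genes were led by MKI67 (log2 -0.86 ± 0.09 (SE), adjusted p = 7.41e-08), CENPF (log2 -0.65 ± 0.09 (SE), adjusted p = 3.53e-06) and AURKB, the kinase of the passenger complex (log2 -0.51 ± 0.15 (SE), adjusted p = 0.00786, edgeR, and 0.0651 by limma under TPM). The number called was 4 with TPM and 5 with the read covariate, without untreated day 6 replicate 1, day 6 RA replicate 1 or day 9 RA replicate 3, or without untreated day 6 replicates 1 and 3.

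CHIR99021 and BMP4 without RA went with 9 lower G2/M genes and none higher against untreated day 9 (median log2 -0.27), with 21.8% of all tested genes lower. BUB1 was 117 to 130.5 CPM untreated and 68.3, 71.1 and 71.0 CPM treated, 1.76-fold lower (log2 -0.81 ± 0.07 (SE), adjusted p = 5.68e-09, edgeR). CENPF was 669 to 713 CPM and 433, 421 and 417 CPM, 1.62-fold lower (edgeR adjusted p = 8.55e-09), and MKI67 548 to 591 CPM and 401, 369.7 and 376 CPM, 1.5-fold lower (edgeR adjusted p = 1.5e-07). Treated libraries lay below untreated ones for all 3 genes. Under TPM the split was 2 higher and 3 lower.

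After RA, CHIR99021 and BMP4 went with 9 higher and 1 lower G2/M gene (median log2 0.31), with 32.1% of all tested genes higher. FOXM1 rose to 157, 145 and 153 CPM, 1.59-fold above RA alone (log2 0.67 ± 0.07 (SE), adjusted p = 2.39e-08, edgeR), MKI67 to 386, 371 and 391 CPM, 1.41-fold (edgeR adjusted p = 7.8e-07), and BUB1B, the checkpoint protein BubR1, from 90.0, 85.2 and 81.4 CPM to 119, 114 and 117 CPM, 1.36-fold (edgeR adjusted p = 1.21e-05). The lower member was BUB1, with 105, 88.2 and 94.2 CPM and 77.9, 72.3 and 79.5 CPM (log2 -0.32, edgeR adjusted p = 0.000692). CCNB1, CCNB2, PLK1, AURKA and CDC20 were not called, with log2 changes between -0.08 and 0.14. With CHIR99021 and BMP4 in both groups, earlier RA went with 3 higher and 3 lower G2/M genes (median log2 0.00), shares near those of all tested genes (21.2% and 22.1%). CENPF was 417 to 433 CPM without and 552, 518 and 548 CPM with RA, 1.27-fold higher, and CCNB2, cyclin B2, 92.1, 88.5 and 96.6 CPM and 73.6, 68.9 and 65.1 CPM, 1.33-fold lower (edgeR adjusted p = 0.000124 and 0.000843). AURKA was 59.8, 54.5 and 61.3 CPM and 50.6, 45.9 and 45.1 CPM, 1.24-fold lower (edgeR adjusted p = 0.0119, 0.0559 without CHIR99021 and BMP4 replicate 3, when 3 genes of the class were called, and 0.0952 by limma under TPM). The interaction was called positive for 11 of 15 genes (median log2 0.49, lowest 0.13) and for 25.5% of all tested genes. MKI67 gave log2 1.08 ± 0.09 (SE), adjusted p = 2.02e-09, CENPF 1.01 ± 0.09 (SE), adjusted p = 4.28e-09 and FOXM1 0.93 ± 0.10 (SE), adjusted p = 5.36e-08 (edgeR). The interaction was called positive for 4 genes under TPM, and none was called with the read covariate.

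The balance between the classes differed between the groups. The mean log2 CPM of the 20 S phase genes minus that of the 15 G2/M genes was -1.49, -1.22 and -1.30 in day 9 RA libraries and -0.79, -0.83 and -0.92 in untreated day 9 libraries. It was -0.29, -0.24 and -0.27 after RA, CHIR99021 and BMP4 and -0.55, -0.78 and -0.62 after CHIR99021 and BMP4 alone. The day 9 RA libraries were the lowest of the 18 and those with RA before CHIR99021 and BMP4 the highest, with no overlap with any other group in either case. Day 6 libraries had -0.48, -0.61 and -0.53 untreated and -0.67, -0.47 and -0.47 with RA, which overlapped. These values describe the groups and were not tested.

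**Figure D4:**
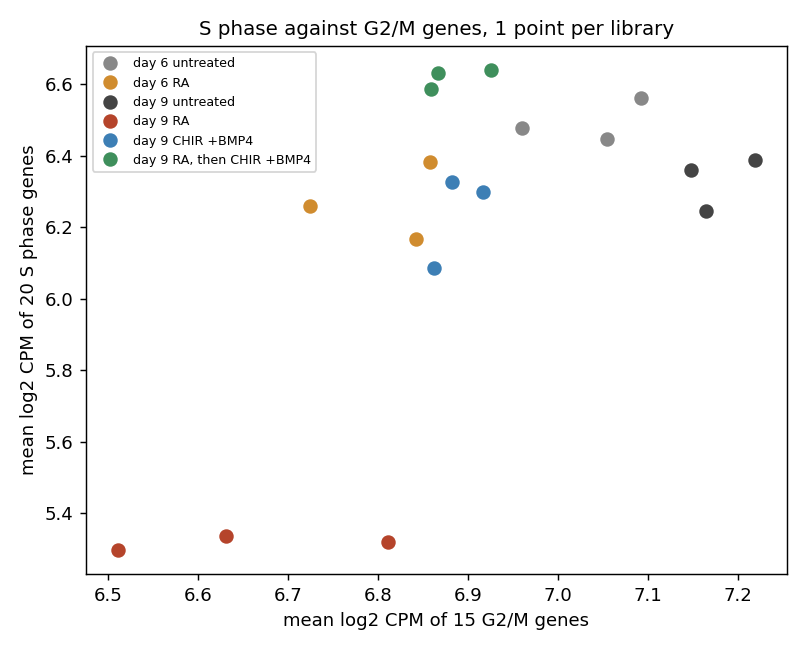
Mean log2 CPM of the 20 S phase genes (y axis) against that of the 15 G2/M genes (x axis), 1 point per library, coloured by group. The 3 day 9 RA libraries lie at 5.30 to 5.33 on the S phase axis, below the other 15 (6.09 to 6.64), while on the G2/M axis 1 of them, at 6.81, lies among day 6 RA libraries (6.72 to 6.86).

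D cyclins, which carry growth signals into G1, were higher with RA on day 9. CCND1, cyclin D1, measured 195, 205 and 199 CPM untreated and 282, 253 and 252 CPM with RA, 1.31-fold higher (log2 0.39 ± 0.08 (SE), adjusted p = 0.000181, edgeR). CCND2 was 139.6, 157 and 137 CPM and 169.7, 191 and 175 CPM (1.24-fold higher, edgeR adjusted p = 0.00163) and CCND3 11.1, 9.87 and 8.81 CPM and 15.2, 14.2 and 14.8 CPM (1.45-fold higher, edgeR adjusted p = 0.00414). No groups overlapped. In this comparison 32.5% of all tested genes were called higher, and 5089 of 15531 were higher without overlap. All 3 D cyclins had their highest mean in the day 9 RA group, which was not counted over all genes. With the read covariate the sign of CCND1 and CCND3 turned (log2 -0.39 and -0.85), neither being called.

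After RA, CHIR99021 and BMP4 went with lower levels of all 3 D cyclins. CCND1 was 147, 156 and 132 CPM, 1.80-fold lower than after RA alone (log2 -0.85 ± 0.08 (SE), adjusted p = 3.36e-09, edgeR), CCND2 was 138, 139 and 142 CPM, 1.28-fold lower (edgeR adjusted p = 0.000403), and CCND3 was 8.80, 10.4 and 9.10 CPM, 1.56-fold lower (edgeR adjusted p = 0.000713). In no case did the groups overlap. Of all tested genes 32.3% were called lower, and 5326 of 15531 were lower without overlap. Without RA, CHIR99021 and BMP4 went with lower CCND2 (117, 127 and 112 CPM, log2 -0.28, edgeR adjusted p = 0.00539) and CCND3 (7.60, 5.43 and 5.34 CPM, log2 -0.73, edgeR adjusted p = 0.000687) than in untreated day 9 libraries. The CCND2 difference was not called under TPM (limma adjusted p = 0.748), and its sign turned with the read covariate (log2 0.52). CCND1 was 173, 177 and 192 CPM in that group, log2 -0.14 from untreated, which was not called (edgeR adjusted p = 0.154).

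With CHIR99021 and BMP4 in both groups, earlier RA went with lower CCND1 (1.24-fold, edgeR adjusted p = 0.003) and with higher CCND2 (1.18-fold, 0.0168) and CCND3 (1.53-fold, 0.00284). The CCND2 call was lost without replicate 1 or 3 of the group with CHIR99021 and BMP4 alone (edgeR adjusted p = 0.0517 and 0.0886), and that of CCND1 under TPM (limma adjusted p = 0.0677). CCND1 alone of the D cyclins was called in the interaction of RA with the later factors (log2 -0.71 ± 0.11 (SE), adjusted p = 1.67e-05, edgeR), and its sign turned with the read covariate (log2 0.08).

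Over time, CCND1 rose in both arms. It was 125, 116 and 127 CPM on day 6 untreated, 1.63-fold below day 9 (log2 0.70 ± 0.08 (SE), adjusted p = 3.11e-07, edgeR), and 79.5, 80.8 and 99.8 CPM on day 6 with RA, 3.03-fold below day 9 (log2 1.60 ± 0.08 (SE), adjusted p = 1.33e-13). On day 6 RA went with lower CCND1 (1.42-fold, edgeR adjusted p = 3.06e-05), and on day 9 with higher, a difference between days of log2 0.90 ± 0.12 (SE), adjusted p = 1.05e-06. CCND2 was 141, 148 and 171 CPM on day 6 with RA and 1.17-fold higher on day 9 with overlapping groups (edgeR adjusted p = 0.0183), a call lost without day 6 RA replicate 1 or 2 or day 9 RA replicate 2 (0.0763 to 0.112) under upper quartile scaling (0.117) and under TPM (0.109).

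**Figure D5:**
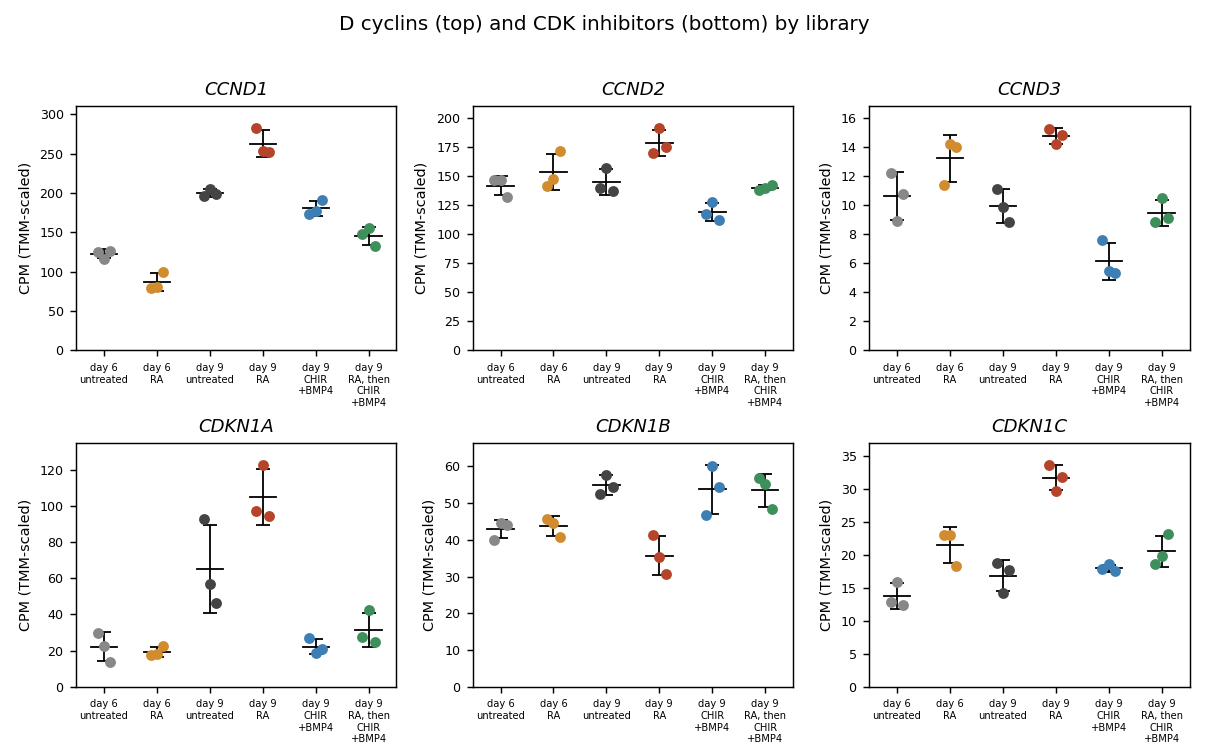
CPM of the 3 D cyclins (top row) and 3 tested CDK inhibitors (bottom row) in each library (points, coloured by group), with the mean (bar) and SD (error bar) of 3 libraries, on axes that start at 0. CCND1 (252 to 282 CPM), CDKN1C (29.7 to 33.5 CPM) and CDKN1A are highest in the day 9 RA libraries, as are 14.2% of all tested genes. CDKN1B has its lowest mean in that group (libraries at 30.7 to 41.2 CPM).

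The CDK inhibitors did not move as 1 group. CDKN1C (p57) measured 18.7, 14.1 and 17.6 CPM on day 9 untreated and 33.5, 29.7 and 31.8 CPM with RA, 1.84-fold higher (log2 0.88 ± 0.12 (SE), adjusted p = 1.31e-06, edgeR). The day 9 RA libraries were the highest of all 18, as they were in 14.2% of all tested genes. CDKN1B (p27) measured 52.4, 57.7 and 54.4 CPM and 41.2, 35.2 and 30.7 CPM, 1.54-fold lower (log2 -0.62 ± 0.11 (SE), adjusted p = 1.75e-05). CDKN1A (p21), a target of p53, measured 92.8, 56.7 and 46.5 CPM and 97.4, 123 and 94.3 CPM, with log2 0.63 ± 0.28 (SE), adjusted p = 0.0606, which missed the threshold although the groups did not overlap. For CDKN1A too, the day 9 RA libraries lay above all others.

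CDKN1A changed more with CHIR99021 and BMP4 and with time. It was 27.6, 42.3 and 24.8 CPM after RA, CHIR99021 and BMP4, 3.33-fold below RA alone (log2 -1.73 ± 0.29 (SE), adjusted p = 0.000145, edgeR). Without RA it was 26.8, 18.7 and 20.9 CPM after CHIR99021 and BMP4, 3.04-fold below untreated day 9 (log2 -1.60 ± 0.30 (SE), adjusted p = 0.000671), a sign that turned with the read covariate (log2 2.12). Day 6 levels were 29.9, 22.6 and 13.7 CPM untreated and 17.3, 17.9 and 22.7 CPM with RA, which overlapped. Day 9 was 3.11-fold above day 6 in untreated cells (edgeR adjusted p = 0.00085) and 5.49-fold after RA (edgeR adjusted p = 1.33e-05).

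CDKN1B was 56.9, 55.1 and 48.4 CPM after RA, CHIR99021 and BMP4, 1.52-fold above RA alone (log2 0.60 ± 0.10 (SE), adjusted p = 2.24e-05, edgeR), and CDKN1C was 18.7, 19.8 and 23.2 CPM, 1.56-fold below it (log2 -0.64 ± 0.12 (SE), adjusted p = 5.72e-05). The interaction of RA with the later factors was log2 0.63 ± 0.14 (SE), adjusted p = 0.000743 (0.0625 by limma under TPM) for CDKN1B and log2 -0.70 ± 0.17 (SE), adjusted p = 0.00142 for CDKN1C. On day 6 CDKN1C was 12.9, 15.9 and 12.3 CPM untreated and 23.0, 23.1 and 18.3 CPM with RA, 1.59-fold higher (edgeR adjusted p = 2e-04, 0.0917 without untreated day 6 replicates 1 and 3), and its rise after RA to day 9 was 1.46-fold (edgeR adjusted p = 0.000389). In untreated cells CDKN1C was 1.26-fold higher on day 9 with overlapping groups (edgeR adjusted p = 0.0434), a call lost (adjusted p 0.05 to 0.755) under RLE scaling, DESeq2, TPM and no filter, with the replicate block, in a fit of these groups only, and without replicate 1 or 3 of either group, CHIR99021 and BMP4 replicate 3, replicate 2 of RA before them, or untreated day 6 replicates 1 and 3. CDKN1B was 40.1, 44.6 and 44.1 CPM on day 6 untreated and 1.27-fold higher on day 9 (edgeR adjusted p = 0.00846, 0.198 without untreated day 6 replicates 1 and 3 and 0.245 by limma under TPM), and 45.8, 44.6 and 40.6 CPM with RA and 1.23-fold lower on day 9 (edgeR adjusted p = 0.0167, 0.0508 to 0.129 without day 6 RA replicate 1 or 2 or day 9 RA replicate 3). The RA response of CDKN1B differed between the days by log2 -0.65 ± 0.15 (SE), adjusted p = 0.000825.

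Other genes of the same processes were counted in the same comparisons. Of all tested genes, 32.5% were higher and 32.5% lower with RA on day 9, 32.1% and 32.3% with CHIR99021 and BMP4 after RA, and 28.5% and 30.3% on day 9 against day 6 after RA. Of 47 further S phase and replication genes, all tested, 37 were lower and 2 higher with RA on day 9 (median log2 -0.47), 45 were higher and none lower with CHIR99021 and BMP4 after RA (median 0.84), and 39 were lower and 1 higher on day 9 than on day 6 after RA. DTL, which marks CDT1 for destruction, was 59.5, 65.9 and 55.8 CPM untreated, 15.2, 16.9 and 19.0 CPM with RA and 81.5, 79.4 and 68.1 CPM with CHIR99021 and BMP4 after RA, with no overlap. Of 44 further G2 and mitosis genes, 28 were lower and 3 higher with RA on day 9 (median -0.32), and 23 were higher and 2 lower with CHIR99021 and BMP4 after RA (median 0.27).

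Of 24 further G1 regulators and RB-E2F genes, 12 were lower and 6 higher with RA on day 9, where 65.1% of all tested genes were called (32.5% higher and 32.5% lower). CDKN2B, the CDK4 and CDK6 inhibitor p15, had the largest log2 change, from 10, 4.94 and 6.22 CPM untreated to 258, 181 and 85.7 CPM with RA, 21.8-fold higher (log2 4.45 ± 0.42 (SE), adjusted p = 7.36e-07, edgeR). It was 1.87, 1.81 and 2.48 CPM after RA, CHIR99021 and BMP4 (log2 -6.45 ± 0.50 (SE), adjusted p = 9.27e-08 against RA alone). The day 9 RA libraries lay above all others, as they did in 14.2% of all tested genes, and were spread widely. Of 16 p53 targets other than CDKN1A, 7 were higher and 2 lower with RA on day 9, where 65.1% of all tested genes were called, and 4 higher and 8 lower with CHIR99021 and BMP4 after RA. GADD45A, a stress-induced growth arrest gene, was 31.7, 20.1 and 21.4 CPM untreated, 58.7, 56.1 and 72.4 CPM with RA (2.45-fold higher, edgeR adjusted p = 1.08e-06) and 13.2, 16.4 and 15.6 CPM after CHIR99021 and BMP4 were added (4.22-fold lower, edgeR adjusted p = 2.48e-09). Since the RA response on day 9, its change with CHIR99021 and BMP4 and its change from day 6 share the same 3 day 9 RA libraries, these results are not independent of each other.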

How the data were processed

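Bulk RNA-seq libraries were prepared with a stranded mRNA kit, per the labels' protocols. The authors deposited whole-number read counts per gene and, in a separate matrix, TPM values for the same 18 libraries. STAR 2.7.9 and the build GRCh38 are named, per the submitters' processing notes. Counting step, annotation and use of strand: not given in the sources used here. Overlapping genes and near-identical copies can therefore share reads.

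Rows without a symbol (36, with 0.001% of counts) were left out. Genes passing edgeR's filterByExpr with a minimum count of 10 (15531) were scaled by TMM and fitted in 1 model of 6 groups with edgeR 4.0.16 (R 4.3.3), with quasi-likelihood tests for 7 comparisons and 2 interactions. A gene was called at a Benjamini-Hochberg adjusted p below 0.05 over all tested genes. Group means are given with the SD where printed, and log2 changes with the SE. Library totals (lowest and highest in the report) left a common dispersion of 0.00724.

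Alternatives were RLE and upper quartile scaling, no filter, fits of the compared groups alone, a replicate block, the pseudogene signature as a covariate, omission of each library or of untreated day 6 replicates 1 and 3, DESeq2 1.42.0, and limma 3.58.1 on log2(TPM + 1), called TPM in the text. On simulated counts for the comparison of CHIR99021 and BMP4 after RA (15531 genes), 52.2%, 71.6% and 95.5% of genes changed by 1.5-, 2- and 4-fold were recovered. Only 67, 67 and 66 genes were changed there, while 64.4% of all tested genes were called in the real comparison. These rates therefore do not give the power of the real test.

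All members could be named. Full statistics went, per comparison, to the called S phase and G2/M members with the 3 largest absolute log2 changes per class and to every called D cyclin and CDK inhibitor, and other lists gave their 2 largest called genes. The members and lists were chosen with earlier results of these data known. BUB1 after RA, CCNB1 and PLK1 within RA-treated cells, PCNA, RRM2, CCNE2 and CCNE1 were given values after these had been seen.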

Additional observations from a re-analysis of the deposited data

Results flagged for a closer look

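The response to RA differed according to whether CHIR99021 and BMP4 followed, by edgeR's interaction test with Benjamini-Hochberg adjustment. The log2 response with these factors minus that without them was 1.71 for MCM2 (adjusted p = 8.75e-11), 1.73 for E2F1 (adjusted p = 1.52e-08) and 3.46 for E2F2 (adjusted p = 2.25e-12) among S phase genes. Among G2/M genes it was 1.08 for MKI67 (adjusted p = 2.02e-09), 1.01 for CENPF (adjusted p = 4.28e-09) and 0.93 for FOXM1 (adjusted p = 5.36e-08). In the G1 regulators it was -0.71 for CCND1 (adjusted p = 1.67e-05), 0.63 for CDKN1B (adjusted p = 0.000743) and -0.70 for CDKN1C (adjusted p = 0.00142).

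The response also differed between the days. The log2 response on day 9 minus that on day 6 was -1.42 for MCM2 (adjusted p = 2.03e-09), -1.35 for CCNE1 (adjusted p = 4.37e-06) and -2.69 for E2F2 (adjusted p = 2.06e-10) among S phase genes. It was -0.86 for MKI67 (adjusted p = 7.41e-08), -0.51 for AURKB (adjusted p = 0.00786) and -0.65 for CENPF (adjusted p = 3.53e-06) among G2/M genes, and 0.90 for CCND1 (adjusted p = 1.05e-06) and -0.65 for CDKN1B (adjusted p = 0.000825) in the G1 regulators. These interactions compare treated with untreated libraries, which also differed in the pseudogene signature. Groups of 3 libraries were not tested for outlying samples.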

How the results depend on the processing

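RLE, upper quartile and unfiltered fits, DESeq2 and fits of the compared groups kept every S phase and G2/M count within 1.5 times. Deviations from the group mean correlated at -0.0754 to 0.165 between replicates of the same number. Replicates of different numbers were not compared, so this check cannot show whether samples were paired. With the replicate block 19 S phase and 15 G2/M genes were called for RA at day 9, 20 and 10 with CHIR99021 and BMP4 following RA, and 1 of 87 named calls was lost (CDKN1C, untreated day 9 against day 6, edgeR adjusted p = 0.0555). With the pseudogene signature as a covariate, S phase and G2/M calls were 0 and 0 for RA at day 6, RA at day 9 and CHIR99021 and BMP4 without RA, 1 and 0 for RA by CHIR99021 and BMP4, 5 S phase genes for untreated day 9 against day 6 and 5 G2/M genes for RA by day, 35 named calls were lost, and 5 turned: CCND1 (-0.39) and CCND3 (-0.85) for RA at day 9, CCND2 (0.52) and CDKN1A (2.12) for CHIR99021 and BMP4 without RA, and CCND1 (0.0754) for RA by CHIR99021 and BMP4. Without untreated day 6 replicates 1 and 3, calls were 7 S phase genes for RA at day 6, 4 S phase and 2 G2/M genes for untreated day 9 against day 6, and 5 G2/M genes for RA by day. Under TPM they were 7 S phase genes for RA at day 6, 6 G2/M genes for RA at day 9, 8 S phase and 5 G2/M genes for CHIR99021 and BMP4 without RA, 3 G2/M genes for untreated day 9 against day 6, and 4 G2/M genes each for RA by CHIR99021 and BMP4 and RA by day. S phase calls of CHIR99021 and BMP4 without RA then leaned higher (6 to 2) and G2/M calls of untreated day 9 against day 6 lower (1 to 2). Leaving out 1 library gave, for S phase and G2/M, 7 to 11 and 4 to 7 (RA at day 6), 19 and 13 to 15 (RA at day 9), 4 to 6 and 6 to 10 (CHIR99021 and BMP4 without RA), 13 to 16 and 3 to 6 (RA before them), 20 and 9 to 11 (after RA), 7 to 13 and 2 to 6 (untreated day 9 against day 6), 19 to 20 and 6 to 9 (RA-treated), 20 and 10 to 15 (RA by CHIR99021 and BMP4), and 16 to 17 and 5 to 9 (RA by day), with 1546 of 1566 named calls kept. TPM moved the median of all genes to 0.174, 0.256, 0.206, -0.146 and -0.198 for RA at day 6, RA at day 9, CHIR99021 and BMP4 without RA, untreated day 9 against day 6 and RA by CHIR99021 and BMP4, and the share of calls that were higher to 74.7%, 73.3%, 79.7%, 28.2% and 29.4% (51.9%, 50%, 49.1%, 51.3% and 47.8% by edgeR), to 62.2% (48.9%) where RA preceded CHIR99021 and BMP4 in 1 arm and 58.8% (48.8%) for RA by day. Upper quartile scaling moved that median to -0.116 for RA at day 9, 0.104 for CHIR99021 and BMP4 after RA, -0.11 for RA-treated day 9 against day 6 and -0.12 for RA by day. Where an alternative changed a count, the cause was not tested. Depth limits mainly CCNE2, CCND3 and CDKN2C, which had few counts, and E2F2 in the day 9 RA libraries (mean 5.12 CPM).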
